A study of Mus musculus with 123 samples.

Results

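Tfe3, its relatives Tfeb and Mitf, and the genes of the folliculin complex, Flcn, Fnip1 and Fnip2, were followed through single mouse embryos that lacked Oct4 (gene symbol Pou5f1) or Sox2. These 6 genes were found by their symbols among the 29022 genes of the count table. The set was selected on measured values, because Tfe3 was lower in the inner cell masses (ICMs) of both KO lines. The Tfe3 values of KO and Ctrl ICMs are therefore given as a description, without a test. The other 5 genes joined the set as relatives or partners of Tfe3 and were tested in every comparison, although earlier results of these data were known when the set was made.

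The study sequenced single morulae or ICMs in 16 groups (48 Ctrl, 48 KO and 27 MWT embryos), with 1 library per embryo, to ask what Oct4 and Sox2 do while the ICM forms and matures. In the Oct4 line, Ctrl and KO embryos came from Pou5f1 flox/flox Zp3-Cre mothers. Zp3-Cre acts in the growing oocyte, so all of these embryos lacked the maternal gene. Ctrl embryos kept 1 intact paternal allele, and KO embryos inherited a null paternal allele labelled with mKO2. The Sox2 line had the same design with a paternal null allele labelled with EGFP. MWT embryos came from mothers whose gene was intact. Morulae were taken at E2.75, early ICMs at E3.75 and late ICMs at E4.5. ICMs, unlike morulae, were grown from E2.5 in 1 µM of the MEK inhibitor PD0325901 by the labels of all ICM groups but Oct4 MWT early ICMs, and immunosurgery removed their trophectoderm. A morula and an ICM therefore differ in culture and isolation as well as in stage. Every Ctrl and KO group held 8 embryos. MWT embryos of the Oct4 line numbered 7 at the morula, 5 at the early ICM and 8 at the late ICM stage, and the Sox2 line had 7 MWT early ICMs. For Oct4 MWT ICMs the other labels disagree with the sample titles, which were followed. Those titled early ICM are otherwise labelled as morulae, with no inhibitor, and those titled late ICM as early ICMs. Every stage and MWT comparison with these groups rests on the titles. Sox2, which is low in morulae, had 139 to 297 CPM in the 5 embryos titled early ICM and 2.35 to 31.5 CPM in Oct4 MWT morulae.

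Tfe3, Tfeb, Mitf and Tfec form the MiT/TFE family of basic helix-loop-helix leucine zipper factors, which bind E-box sequences and activate genes of lysosomes and autophagy. Flcn with Fnip1 or Fnip2 acts on the Rag GTPases at the lysosome. When nutrients are ample, the Rag GTPases hold Tfe3 and Tfeb in the cytoplasm through the kinase complex mTORC1. In mouse embryonic stem cells, Flcn and its Fnip partners keep Tfe3 out of the nucleus as cells leave the naive state, whereas nuclear Tfe3 sustains the naive pluripotency factor Esrrb. Much of this control acts on protein location, which transcript counts do not show.

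The promoters of the 6 genes were inspected for the motifs that MiT/TFE factors, Oct4 and Sox2 bind. RefSeq lists 11 start sites for them on GRCm38.p6, and the 250 bases before each were searched on both strands. The E-box CACGTG stood before 1 of the 11 start sites, that of Fnip1, and in 6.02% of the 32851 start sites of all genes. The octamer ATGCAAAT, which Oct4 binds, was in none of the 11 and in 1.6% of all start sites. The SOX core CATTGT was likewise in none of the 11 and in 10.7% of all start sites. A match or its absence describes only the letters of this window. The stretches before the first start sites of Tfe3, Tfeb and Mitf, on whose levels in KO ICMs the results turn, and the Fnip1 stretch with its E-box in capitals are shown 5′ to 3′, without bases that lie inside the gene.
Tfe3, chrX:7762411-7762559, + strand: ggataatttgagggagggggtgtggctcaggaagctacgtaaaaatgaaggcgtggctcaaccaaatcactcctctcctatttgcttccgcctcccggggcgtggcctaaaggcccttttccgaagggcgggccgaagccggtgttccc
Tfeb, chr17:47736787-47737029, + strand: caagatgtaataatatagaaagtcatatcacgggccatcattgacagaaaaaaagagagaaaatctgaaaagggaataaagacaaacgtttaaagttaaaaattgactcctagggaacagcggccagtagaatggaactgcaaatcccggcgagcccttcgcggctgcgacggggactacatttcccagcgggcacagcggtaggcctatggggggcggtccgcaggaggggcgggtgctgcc
Mitf, chr6:97806808-97807051, + strand: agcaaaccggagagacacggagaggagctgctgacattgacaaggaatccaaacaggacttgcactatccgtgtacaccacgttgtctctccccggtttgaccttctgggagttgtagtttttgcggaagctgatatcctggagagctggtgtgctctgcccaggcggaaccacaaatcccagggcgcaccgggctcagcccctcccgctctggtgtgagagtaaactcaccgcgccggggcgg
Fnip1, chr11:54437929-54438178, + strand: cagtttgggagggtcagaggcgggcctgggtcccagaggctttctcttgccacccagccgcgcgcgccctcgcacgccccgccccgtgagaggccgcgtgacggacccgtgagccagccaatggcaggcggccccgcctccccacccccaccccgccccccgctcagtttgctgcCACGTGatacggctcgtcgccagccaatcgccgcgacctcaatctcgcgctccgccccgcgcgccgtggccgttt

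The motif search used all 250 bases, also where the stretch shown is shorter. These stretches differ in base composition. Of the bases before Tfe3, 58.4% are G or C, against 51% before Tfeb, 58.6% before Mitf and 73.6% before Fnip1. The Fnip1 stretch holds 32 CpG steps and the Mitf stretch 14. The Fnip1 E-box starts 75 bases before the RefSeq start site.

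Tfe3 spans chrX:7762560-7775202 (mm10, + strand), Tfeb chr17:47737030-47792419 (+), Mitf chr6:97807052-98021349 (+), Flcn chr11:59791408-59810016 (-), Fnip1 chr11:54438199-54518235 (+) and Fnip2 chr3:79455974-79567796 (-). Counts were made from 3′ ends. Whether reads were counted by strand is not stated, so the genes that overlap a member matter. No annotated gene overlaps Tfe3, Tfeb or Flcn. The processed pseudogene Gm15531 lies within Mitf on the opposite strand, the short RNA gene Gm24198 within Fnip1, and Gm17359 and Gm3513 overlap Fnip2.

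Total UMIs, counts of distinct transcript molecules, ran from 525755 to 1344035 per embryo, so 1 CPM, a count scaled by the embryo's total, stood for about 1 UMI. The targeted genes followed the labels. Pou5f1 had a mean of 0.158 CPM in Oct4-KO late ICMs against 43.8 CPM in Ctrl. Sox2 had a mean of 16.1 CPM in Sox2-KO late ICMs against 183 CPM in Ctrl. At the early ICM stage its means were 23.6 CPM in Sox2-KO and 109 CPM in Ctrl. Some Sox2 UMIs thus remained, at 6 to 35 in each Sox2-KO early ICM and 6 to 29 in each late ICM. In bulk ICMs, fewer cells of a type and less RNA per cell cannot be told apart. The 10 epiblast markers had UMIs in every group. Their summed level was 4280 to 6330 CPM in Oct4 Ctrl late ICMs and 757 to 2320 CPM in Oct4-KO late ICMs. In Sox2 late ICMs it was 4110 to 6610 CPM in Ctrl and 3010 to 4800 CPM in KO. Early ICMs of the Oct4 line had 4830 to 6890 CPM in Ctrl and 2980 to 3740 CPM in KO. Those of the Sox2 line had 3500 to 5400 CPM in Ctrl and 3510 to 4020 CPM in KO.

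All 6 members passed the detection filter. Over all embryos Tfe3 had 5157 UMIs, Fnip1 4666, Flcn 4016, Tfeb 2951, Fnip2 1093 and Mitf 660. Tfec, the fourth family member, had 14 UMIs in 9 embryos and was too low to test.

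Tfe3 was lower in the KO ICMs of both lines and at both ICM stages, and not detectably different in KO morulae. Per embryo, early ICMs of the Oct4 line had 27.6 to 61.2 CPM of Tfe3 in Ctrl (median 38.7) and 12.5 to 34.2 CPM in KO (median 23.3). In late ICMs of that line, Ctrl embryos had 35.1 to 114 CPM (median 50.7) and KO embryos 28.1 to 42 CPM (median 34.7). In early ICMs of the Sox2 line the range was 37.8 to 68.9 CPM in Ctrl (median 54.3) and 22.8 to 47 CPM in KO (median 36.2). Late ICMs of the Sox2 line had 55.4 to 125 CPM in Ctrl (median 70.2) and 22.2 to 59.3 CPM in KO (median 37.4). In each of these 4 comparisons the Ctrl median exceeded all 8 KO embryos, and the highest KO embryo still overlapped the Ctrl range. Between 5 and 7 of the 8 KO embryos lay below the lowest Ctrl embryo.

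**Figure D1:**
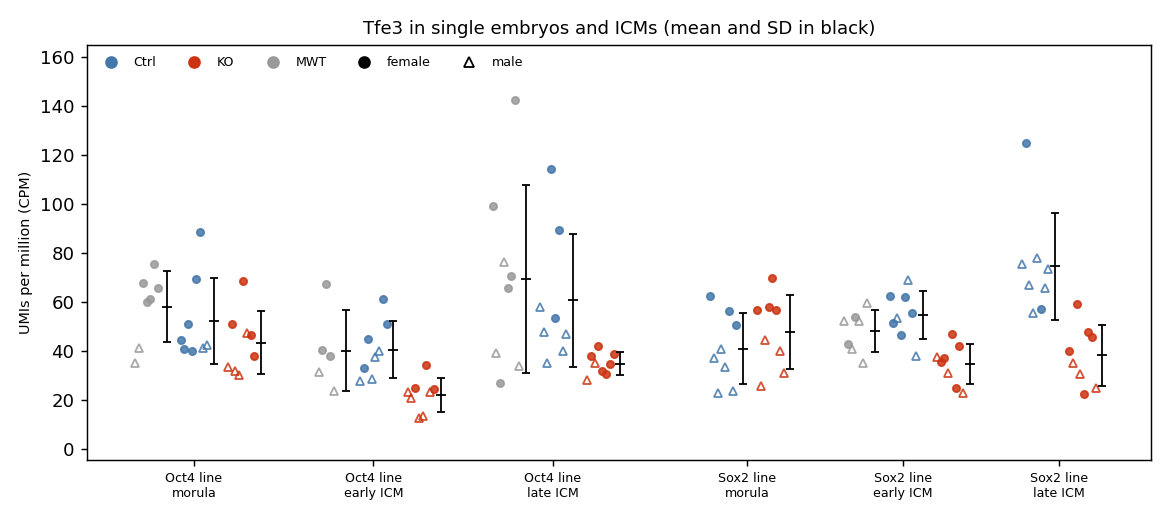
Tfe3 in CPM (y axis) in each embryo or ICM (points) of the 16 groups (x axis), with the group mean and SD in black. Filled circles are female and open triangles male embryos, by Y-linked UMIs. Every KO ICM group sits lower than its Ctrl group, and female points lie mostly above male points of the same group.

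As log2 fold changes of KO over Ctrl from the edgeR fit, Tfe3 stood at -0.81 ± 0.23 (SE) in early and -0.70 ± 0.22 in late ICMs of the Oct4 line. In the Sox2 line the values were -0.58 ± 0.21 in early and -0.86 ± 0.21 in late ICMs. None of these 4 sizes reached the log2 fold change of 1 that a call required. With sex as a covariate, described below, the value in Sox2-KO late ICMs was past it, at -1.08. In morulae, which played no part in the choice, Tfe3 had means of 43.4 CPM in Oct4-KO and 52.2 CPM in Ctrl embryos (log2 fold change -0.21 ± 0.21, edgeR adjusted p = 0.79). In Sox2-KO morulae the mean was 47.7 CPM against 40.9 CPM in Ctrl (0.23 ± 0.21, edgeR adjusted p = 1).

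Mitf, best known as the master regulator of melanocytes and also active in the retinal pigment epithelium and osteoclasts, was nearly absent from KO late ICMs of both lines. Oct4 Ctrl late ICMs had 13.4 to 29.1 CPM (median 19.9), and Oct4-KO late ICMs 0 to 2.38 CPM (median 1.36). This was 6 UMIs over 8 KO embryos against 112 UMIs over 8 Ctrl embryos. Sox2 Ctrl late ICMs had 8.13 to 44.1 CPM (median 30.1), and Sox2-KO late ICMs 0 to 4.99 CPM (median 3.51), which was 20 UMIs against 201. In both lines the groups did not overlap.

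Mitf was called lower in late ICMs of both lines, by edgeR's quasi-likelihood test with Benjamini-Hochberg adjustment over 14053 genes. The log2 fold change was -4.12 ± 0.61 in the Oct4 line (adjusted p = 3.67e-08) and -3.06 ± 0.49 in the Sox2 line (adjusted p = 1.22e-06). From the UMI sums alone, KO embryos held 0.0477 of the Ctrl level in the Oct4 line (95% interval 0.0171 to 0.107) and 0.106 in the Sox2 line (0.0632 to 0.168). These intervals cover counting error only. On the authors' rlog values, a scale that shrinks low counts, the differences were -2.21 in the Oct4 line (limma adjusted p = 3.77e-12) and -2.09 in the Sox2 line (limma adjusted p = 1.65e-10). The background was large: 18.1% of all genes were called in Oct4-KO and 6.95% in Sox2-KO late ICMs.

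In early ICMs Mitf was also called lower in the Sox2 line. Sox2 Ctrl early ICMs ranged from 0.951 to 34.5 CPM (median 7.26) and Sox2-KO early ICMs from 0 to 6.5 CPM (median 2.26). The log2 fold change was -2.26 ± 0.51 (edgeR adjusted p = 0.00152), where 3.27% of all genes were called, and the groups overlapped. It was -1.05 on the authors' rlog values (limma adjusted p = 0.00308), and the call was lost in the 8 embryos with shared numbers (-2.44, edgeR adjusted p = 0.231). Ctrl embryos there fell apart into 3 with 24 to 28 UMIs and 5 with 8 or fewer. Sox2 MWT early ICMs had 0 to 5.55 CPM of Mitf (median 1.27), and Sox2 itself had a mean of 109 CPM in both MWT and Ctrl. Low Mitf was therefore not particular to the KO at this stage. Oct4 Ctrl early ICMs were low throughout, at 0 to 9.49 CPM (median 1.81), and Oct4-KO early ICMs had 0 to 3.67 CPM (median 1.22). That comparison was not called (-0.89 ± 0.65, edgeR adjusted p = 0.367), where 10.9% of genes were called. The ratio of its UMI sums was 0.49 (0.214 to 1.05), which leaves a wide range at 11 and 22 UMIs. The difference between the lines in the Mitf KO effect was not called in early ICMs (1.37 ± 0.90, edgeR adjusted p = 0.391) or late ICMs (-1.06 ± 0.83, edgeR adjusted p = 0.497).

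Tfeb, a regulator of lysosome formation that is also needed for blood vessels to grow into the placenta, was higher in Oct4-KO late ICMs, and its KO effect differed between the lines. In Oct4-KO late ICMs it had 56.5 to 131 CPM (median 86.9), against 9.36 to 30.4 CPM in Ctrl (median 15). All 8 KO embryos lay above the highest Ctrl embryo. In the Sox2 line, late ICMs had 4.9 to 31.8 CPM in KO (median 13.3) and 7.59 to 42.6 CPM in Ctrl (median 15), and the ranges overlapped widely.

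The Tfeb log2 fold change was 2.55 ± 0.27 in Oct4-KO late ICMs (edgeR adjusted p = 2.85e-13) and -0.19 ± 0.29 in Sox2-KO late ICMs (edgeR adjusted p = 0.737). The difference between the 2 effects was 2.745 ± 0.40 (interaction contrast, edgeR adjusted p = 1.86e-07), a contrast in which 6.3% of all genes were called. The ratio of UMI sums was 5.59 (4.44 to 7.12) in the Oct4 line and 0.815 (0.623 to 1.06) in the Sox2 line. In Oct4-KO early ICMs Tfeb ranged from 12.2 to 46.8 CPM (median 23.1) against 11.7 to 25.6 CPM in Ctrl (median 18), and was not called (0.49 ± 0.27, edgeR adjusted p = 0.207). Ranked over the 16 groups, the Oct4-KO late ICM mean of 88.6 ± 26.3 CPM (SD, n = 8) stood above the next, 41.5 ± 6.65 CPM in Oct4-KO morulae (n = 8), by more than both SDs. That was the single such step among the 15 neighbouring pairs, and no other member had one.

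Most trophectoderm markers were called higher in Oct4-KO late ICMs, where Tfeb rose, and fewer in the other KO ICMs. Their summed level was 436 to 1730 CPM in Oct4 Ctrl and 2530 to 5050 CPM in Oct4-KO late ICMs, with 10 of 12 markers called higher. In Oct4 early ICMs, where Tfeb was not called, it was 429 to 1650 CPM in Ctrl and 1090 to 2080 CPM in KO, with 4 called higher and 1 lower. In Sox2 late ICMs the sum was 244 to 3520 CPM in Ctrl and 918 to 3060 CPM in KO, with wide overlap and 4 of 12 called higher. In Sox2 early ICMs, where Mitf was also called, the sum was 149 to 695 CPM in Ctrl and 1030 to 2510 CPM in KO, with 6 called higher and 1 lower. Dlx3 was at 0 in all embryos of Oct4 Ctrl late ICMs and of the Ctrl and KO early ICMs of both lines, and every other trophectoderm marker had UMIs in these groups. Of the primitive endoderm markers, 2 were called higher and 5 lower of 10 tested in Oct4-KO late ICMs, with a summed level of 994 to 1730 CPM in KO and 341 to 1660 CPM in Ctrl. Among all genes, 4.77% (early) and 9.25% (late) were called higher in KO ICMs of the Oct4 line, and 6.11% and 8.85% lower. For the Sox2 line the shares were 1.57% and 3.34% higher, and 1.69% and 3.61% lower. The part of the trophectoderm and primitive endoderm markers in the Tfeb and Mitf results was not tested.

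**Figure D2:**
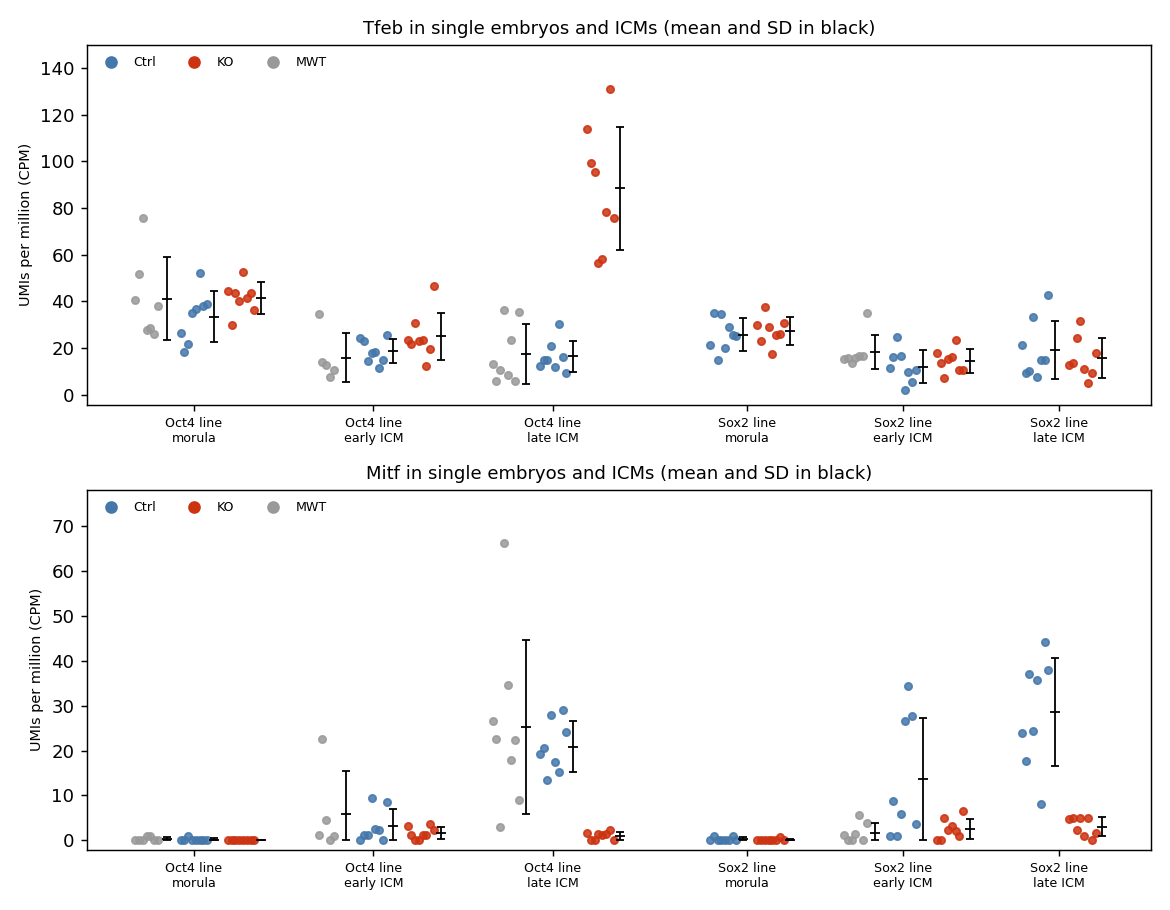
Tfeb (upper panel) and Mitf (lower panel) in CPM (y axis) in each embryo or ICM of the 16 groups (x axis), with mean and SD in black, the lower bar cut at 0. Tfeb stands out in Oct4-KO late ICMs at 56.5 to 131 CPM, and Mitf is at most 4.99 CPM in the KO late ICMs of both lines.

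In morulae neither gene was called. Tfeb means were 41.5 CPM in Oct4-KO and 33.4 CPM in Ctrl morulae (0.37 ± 0.24, edgeR adjusted p = 0.603), and 27.5 against 25.8 CPM in the Sox2 line (0.09 ± 0.25, edgeR adjusted p = 1). Mitf had 0 UMIs over the 8 Oct4-KO morulae and 1 over the 8 Ctrl morulae, and 1 against 2 UMIs in the Sox2 line, which is too few for a fold. In these comparisons 0.804% (Oct4) and 0.00712% (Sox2) of all genes were called, the latter being 1 gene. No member was called between the lines in its morula KO effect, where 0.356% of genes were called.

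The genes of the folliculin complex were not called in KO embryos, and KO and Ctrl ranges overlapped throughout. Flcn is the GTPase-activating subunit for RagC and RagD, and loss of it in people causes Birt-Hogg-Dubé syndrome. It had 26 to 48.2 CPM (median 35.7) in Oct4 Ctrl and 14.5 to 45.2 CPM (median 38.4) in Oct4-KO late ICMs, with a log2 fold change of -0.00 ± 0.20 (edgeR adjusted p = 1). In Sox2 late ICMs it had 48.5 to 84.3 CPM (median 61.1) in Ctrl and 36.4 to 68.6 CPM (median 51.8) in KO (-0.16 ± 0.18, edgeR adjusted p = 0.633). Early ICMs gave -0.32 ± 0.20 in the Oct4 line (edgeR adjusted p = 0.272) and 0.09 ± 0.18 in the Sox2 line (edgeR adjusted p = 0.832). A p above the threshold does not show that the levels were equal.

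Fnip1 and Fnip2 are the alternative partners of Flcn. Fnip1 in late ICMs ranged from 18.7 to 66.8 CPM in Oct4 Ctrl and 31.9 to 78.3 CPM in Oct4-KO embryos, with medians of 43.5 and 41.2 CPM (0.20 ± 0.21, edgeR adjusted p = 0.512). Its largest KO difference was in Sox2 early ICMs, where 4 of 8 KO embryos exceeded the highest Ctrl embryo (40.6 to 103 CPM, median 81.3, against 39.7 to 80.8 CPM, median 60.5). That difference was not called (0.40 ± 0.19, edgeR adjusted p = 0.21). Fnip2 was lowest in Oct4-KO early ICMs, at 0 to 12.5 CPM (median 3.82) against 2.43 to 14.9 CPM in Ctrl (median 9.57). It was not called there either (-0.95 ± 0.42, edgeR adjusted p = 0.0928), but was without the Oct4-KO embryo numbered 10, the highest of its group (-1.35, edgeR adjusted p = 0.0206). None of the 3 genes was called in any of the 6 KO comparisons or in the 3 contrasts between lines. The early ICM contrast between lines had 5.52% of all genes called.

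**Figure D3:**
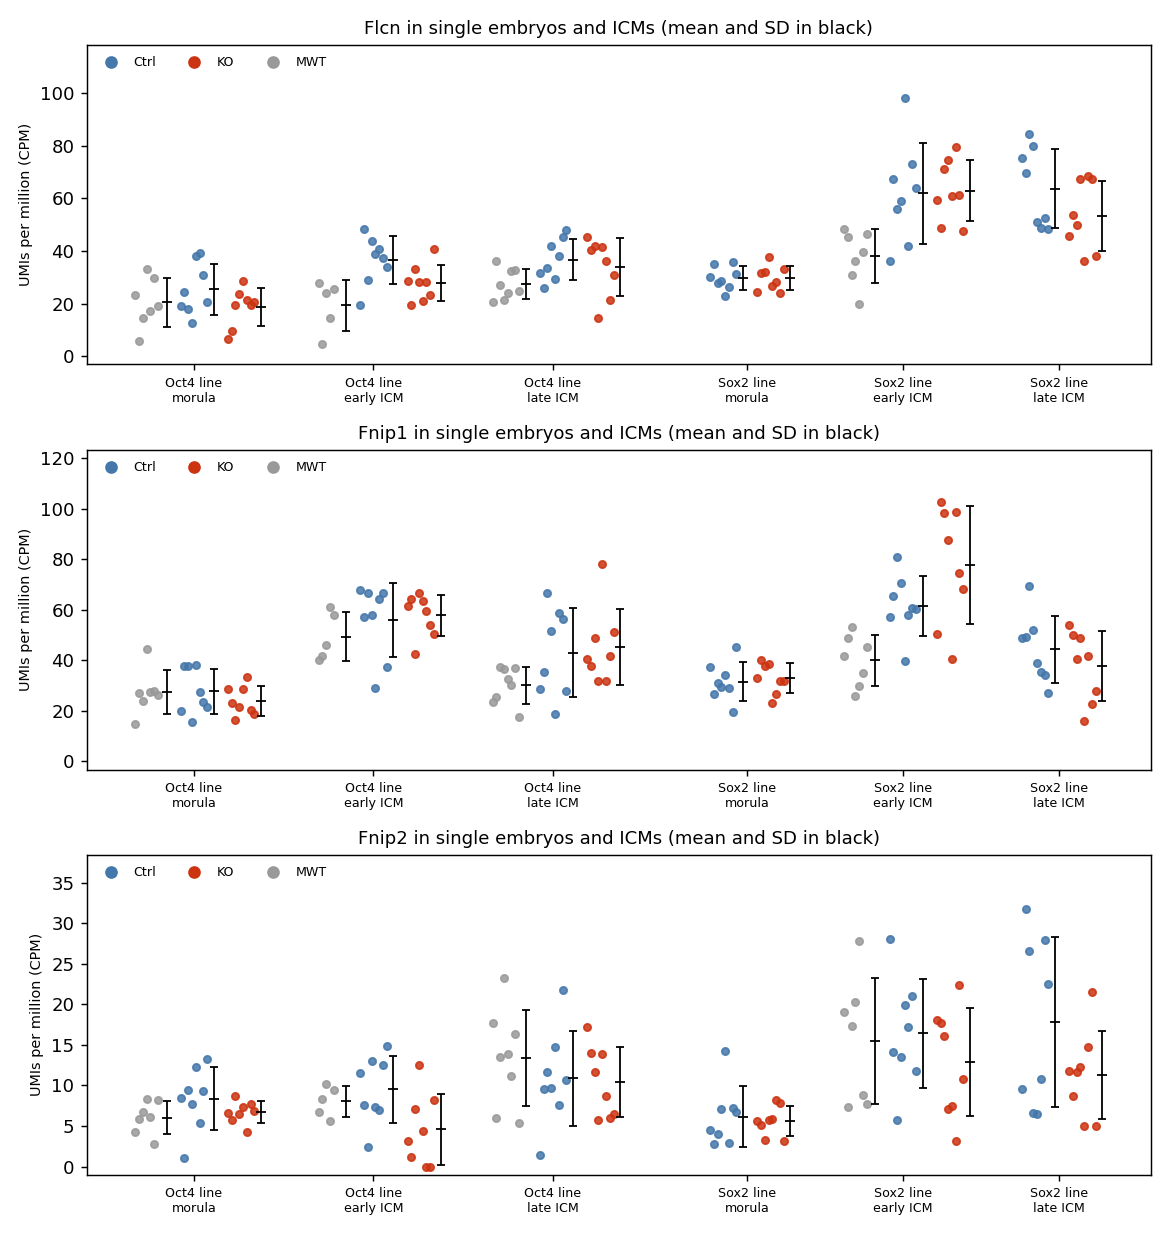
Flcn, Fnip1 and Fnip2 in CPM (y axis) in each embryo or ICM of the 16 groups (x axis), with mean and SD in black. KO and Ctrl groups of the same line and stage overlap in all 3 panels, and Flcn means of Sox2 Ctrl and KO ICMs lie between 53.4 and 63.7 CPM, against 27.8 to 36.7 CPM in the Oct4 line.

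**Figure D4:**
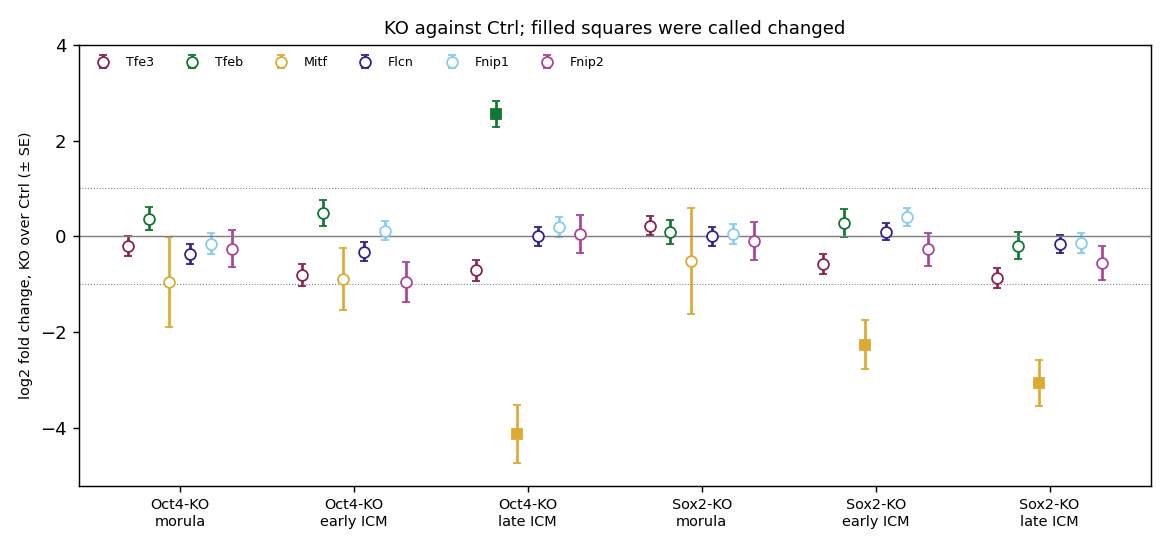
log2 fold change of KO over Ctrl with its SE (y axis) for the 6 members in the 6 KO comparisons (x axis). Filled squares passed both the adjusted p and the fold minimum (dotted lines); the 4 called values are Mitf in Oct4-KO late and Sox2-KO early and late ICMs and Tfeb in Oct4-KO late ICMs, and Tfe3 in ICMs is a description without a test.

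Among Ctrl and KO ICMs, Flcn means were higher in the Sox2 line, a difference given without a test. The Ctrl means were 36.6 ± 9.03 CPM in Oct4 and 62 ± 19.2 CPM in Sox2 early ICMs (SD, n = 8 each), and 36.7 ± 7.92 against 63.7 ± 15.1 CPM in late ICMs. Line and any difference in handling cannot be told apart. Among Sox2 Ctrl late ICMs, Flcn followed the first digit of the sample number, with 69.5 to 84.3 CPM in the 4 embryos whose number starts with 1 and 48.5 to 52.7 CPM in the 4 whose number starts with 2. In Sox2-KO late ICMs the Flcn means were 54.2 and 52.6 CPM, and in Oct4 Ctrl late ICMs they ran the other way, at 32.4 and 43.9 CPM. Fnip1 followed the digit in both groups of the Sox2 line, with means of 55 and 34 CPM in Ctrl and 48.4 and 27.2 CPM in KO late ICMs. In Sox2-KO late ICMs the means were 20.7 and 10.9 CPM for Tfeb and 4.23 and 1.89 CPM for Mitf. Sox2 Ctrl late ICMs ran the other way, at 18.6 and 20 CPM for Tfeb and 25.7 and 31.5 CPM for Mitf. So did Fnip1 in Oct4 late ICMs, at 40.3 and 47.8 CPM in Ctrl and 39.8 and 50.8 CPM in KO. The labels do not say what that digit stands for. With it as a covariate, 3 member values were called in late ICMs, as many as without it.

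Sex was recorded neither as a group nor in the fit, but Tfe3 is X-linked, and its level followed the presence of Y-linked transcripts. In all, 58 embryos had at least 10 UMIs of the Y-linked genes Ddx3y, Eif2s3y, Uty and Kdm5d (60 or more in fact), and 65 had at most 6. The former are called male and the latter female here. In all 16 groups the mean of Tfe3 was higher in female than in male embryos. Oct4 MWT morulae, for example, had 60 to 75.6 CPM in 5 female and 35.2 to 41.1 CPM in 2 male embryos. Sox2 Ctrl morulae had 50.6 to 62.4 CPM in 3 female and 23 to 40.8 CPM in 5 male embryos. Elsewhere the gap was small or the sexes overlapped. Female and male means were 48.3 and 47.9 CPM in Sox2 MWT early ICMs and 55.4 and 53.3 CPM in Sox2 Ctrl early ICMs. Oct4 MWT late ICMs had 27.1 to 143 CPM in female and 33.8 to 76.2 CPM in male embryos.

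Over the 96 Ctrl and KO embryos, Tfe3 was lower in male embryos by a log2 difference of -0.54 ± 0.07 (SE, 46 male and 50 female). It is given without a test, because the ICMs among them chose the set. The same edgeR fit gave an adjusted p under 0.05 for 3% of all genes, 422 in number. Of these, 127 were X-linked out of 432 X-linked genes tested, and 121 of the 127 were higher in female embryos. None of the 5 autosomal members passed in this fit, with adjusted p from 0.57 for Mitf to 0.968 for Fnip1. Within stages, the male minus female difference of log2(CPM + 1) was -0.63 ± 0.12 in morulae, -0.36 ± 0.12 in early and -0.47 ± 0.14 in late ICMs.

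The sexes were not evenly spread over the groups. Oct4 Ctrl late ICMs held 5 male and 3 female embryos and Oct4-KO late ICMs 2 and 6. Sox2 Ctrl late ICMs held 6 and 2, and Sox2-KO late ICMs 3 and 5. With sex as a covariate the Tfe3 log2 fold changes were -0.74 (early) and -0.86 (late) in the Oct4 line, and -0.61 (early) and -1.08 (late) in the Sox2 line. Within sexes, female Oct4 late ICMs had a mean of 85.7 CPM in Ctrl and 35.8 CPM in KO, and male ones 45.5 and 31.5 CPM. In Sox2 late ICMs the female means were 90.9 and 43 CPM and the male means 69.1 and 30.1 CPM.

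Over development without a KO, Mitf rose into the ICM and Tfeb fell from morula to early ICM. Mitf went from 0 to 1.03 CPM in Oct4 MWT morulae to 0, 0.95, 1.11, 4.62 and 22.6 CPM in the 5 early ICMs, and to 3.01 to 66.3 CPM in late ICMs (median 22.4). From morula to early ICM it was called higher in Oct4 MWT (3.62 ± 0.94, edgeR adjusted p = 0.000909), Oct4 Ctrl (3.58 ± 0.98, adjusted p = 0.0015) and Sox2 Ctrl embryos (5.15 ± 0.75, adjusted p = 3.72e-09). The Oct4 MWT rise rests on 1 of 5 early ICMs, the embryo numbered 3, without which it was 1.99 (edgeR adjusted p = 0.144). From early to late ICM, Mitf rose in Oct4 MWT (2.11 ± 0.57, edgeR adjusted p = 0.00308) and Oct4 Ctrl embryos (2.69 ± 0.53, adjusted p = 2.34e-05). Without the same Oct4 MWT early ICM numbered 3, the MWT step was 3.71 (edgeR adjusted p = 1.85e-05). In Sox2 Ctrl embryos, whose early ICMs were already spread up to 34.5 CPM, the step was 1.07 ± 0.44 (edgeR adjusted p = 0.122).

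Tfeb declined from morula to early ICM. It ranged from 26.1 to 75.8 CPM in Oct4 MWT morulae (median 38.2) and from 7.8 to 34.5 CPM in early ICMs (-1.51 ± 0.34, edgeR adjusted p = 0.000121). In Sox2 Ctrl embryos it went from 15.1 to 35.2 CPM (median 25.5) to 2.21 to 24.7 CPM (median 11), a log2 fold change of -1.10 ± 0.30 (edgeR adjusted p = 0.00108). In Oct4 Ctrl embryos the change was -0.91 ± 0.28 (edgeR adjusted p = 0.00516), under the fold minimum. No change followed from early to late ICM that was called. The 4 late ICM groups other than Oct4-KO had Tfeb means between 15.8 and 19.3 CPM.

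Tfe3 in Oct4 MWT embryos, which the choice of genes did not use, went from 35.2 to 75.6 CPM in morulae (median 61) to 23.8 to 67.4 CPM in early ICMs and 27.1 to 143 CPM in late ICMs (median 68.1). The steps were -0.66 ± 0.26 (edgeR adjusted p = 0.0333) and 0.77 ± 0.26 (edgeR adjusted p = 0.018), both under the fold minimum. The second was 1.05 without the early ICM numbered 7 and was then called (edgeR adjusted p = 0.00291), and 0.59 without that numbered 9 (edgeR adjusted p = 0.113). In Ctrl embryos, as a description, means were 52.2, 40.5 and 60.6 CPM from morula to late ICM in the Oct4 line and 40.9, 54.6 and 74.6 CPM in the Sox2 line.

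Of the folliculin genes, Fnip1 means in Oct4 Ctrl embryos were 27.8 ± 9, 56 ± 14.7 and 43.1 ± 17.5 CPM (SD, n = 8 each) from morula to late ICM. Its morula to early ICM step was 0.92 ± 0.20 in Oct4 Ctrl (edgeR adjusted p = 4.9e-05), 0.71 ± 0.23 in Oct4 MWT (adjusted p = 0.00875) and 0.90 ± 0.19 in Sox2 Ctrl embryos (adjusted p = 3.97e-05). None of the 3 reached the fold minimum. Fnip2 was called higher from morula to early ICM in Sox2 Ctrl embryos (1.35 ± 0.35, edgeR adjusted p = 0.000745), from a median of 5.58 to 15.7 CPM. Flcn stood there at 1.00 ± 0.20 (edgeR adjusted p = 1.02e-05), a value of just under the fold minimum, although all 8 early ICMs lay above the highest morula. In Oct4 Ctrl embryos neither was called at that step (Flcn 0.45 ± 0.21, edgeR adjusted p = 0.0717; Fnip2 0.11 ± 0.37, adjusted p = 0.82). From morula to early ICM, 27.6% of all genes were called in Oct4 MWT, 29.2% in Oct4 Ctrl and 32.1% in Sox2 Ctrl embryos, and from early to late ICM 13.2%, 15.7% and 2.84%. In all, 8 of the 32 tested steps of members were called, a share within that background.

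MWT embryos were also compared with Ctrl embryos. An intact mother passes on a working allele, which Ctrl embryos lacked, as well as the oocyte's supply. Oocyte supply, the embryo's own gene dose and any difference in handling cannot be told apart here. The titles do not state the paternal allele of MWT embryos. In the Oct4 line no member tested was called at any stage (Tfe3 was tested in morulae alone), where 0.0646% (morula), 0.373% (early ICM) and 0.797% (late ICM) of all genes were. Flcn in Oct4 early ICMs came closest, at 4.75, 14.5, 24, 25.7 and 27.9 CPM in MWT against 19.6 to 48.4 CPM in Ctrl (median 38.2), a log2 difference of -0.92 ± 0.25 (edgeR adjusted p = 0.0567). It was called without the MWT embryo numbered 1 (-1.09, edgeR adjusted p = 0.0403) or 7 (-1.02, edgeR adjusted p = 0.0488), and was -0.70 without the lowest, numbered 3 (edgeR adjusted p = 0.271). In Sox2 early ICMs Flcn had 20 to 48.2 CPM in MWT (median 39.6) and 36.3 to 98.3 CPM in Ctrl (median 61.4), with all 7 MWT embryos below the Ctrl median. The difference of -0.68 ± 0.21 (edgeR adjusted p = 0.0296) was under the fold minimum. Fnip1 differed by -0.60 ± 0.20 there (edgeR adjusted p = 0.0523).

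Mitf was the 1 member called between MWT and Ctrl embryos. In Sox2 early ICMs it had 0 to 5.55 CPM in MWT (median 1.27) against 0.951 to 34.5 CPM in Ctrl (median 7.26), with a log2 difference of -2.82 ± 0.63 (edgeR adjusted p = 0.00192), where 2.58% of all genes were called. Sox2-KO early ICMs, compared with these 8 Ctrl embryos too, had a median of 2.26 CPM. Both comparisons rest on the same Ctrl embryos. The summed level of primitive endoderm markers also differed, with 1110 to 1590 CPM in MWT and 302 to 1010 CPM in Ctrl embryos and no overlap, as did Pou5f1, with means of 116 and 58.5 CPM. Their part in the Mitf difference was not tested. No Sox2 MWT late ICMs were analysed here.

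Tfe3 levels over all 16 groups ran from 22.1 CPM in Oct4-KO early ICMs to 74.6 CPM in Sox2 Ctrl late ICMs. The 3 lowest groups after the Oct4-KO early ICMs were Sox2-KO early (34.6 CPM), Oct4-KO late (34.7 CPM) and Sox2-KO late ICMs (38.2 CPM). The 4 KO ICM groups thus held the 4 lowest places. Low Tfe3 in KO ICMs was the reason for choosing the set, so their places are a description. No neighbours in this order differed by more than their SDs. Among 7557 genes, those whose group means of log2(CPM + 1) followed Tfe3 most closely were Gps1 (Pearson r = 0.923), a COP9 signalosome subunit, Tubgcp6 (0.907), of the gamma-tubulin ring complex, Twf2 (0.897), an actin-binding protein, Fasn (0.88), the fatty acid synthase, and Ythdc2 (0.869), an RNA helicase. These correlations are over 16 group means that share stages and lines and are a description. The other members had r of 0.588 (Fnip2), 0.502 (Mitf), 0.13 (Flcn), -0.199 (Tfeb) and -0.392 (Fnip1) with Tfe3.

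Other genes of the pathway were counted from lists: lysosome and autophagy genes, which the family activates, and nutrient-sensing genes, which act upstream of it. Called lysosome genes in KO ICMs were all higher: of 46, there were 5 in Oct4-KO early, 13 in Oct4-KO late, 2 in Sox2-KO early and 2 in Sox2-KO late ICMs. Their median log2 fold changes were 0.41, 0.67, 0.05 and 0.15, beside 0.01, -0.01, -0.01 and 0.00 for all genes tested. Of all genes, 4.77%, 9.25%, 1.57% and 3.34% were called higher in these comparisons. Trophectoderm markers had 4, 10, 6 and 4 of 12 called higher in the same comparisons, and their part in the lysosome counts was not tested. No lysosome gene was called in KO morulae.

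Ctsl, encoding the protease cathepsin L, and Neu1, a lysosomal sialidase, were called higher in all 4 KO ICM comparisons. For Ctsl the Oct4 line gave 1.29 ± 0.19 at the early and 1.46 ± 0.19 at the late stage (edgeR adjusted p = 7.75e-08 and 9.36e-10), and the Sox2 line 1.01 ± 0.19 and 1.08 ± 0.19 (edgeR adjusted p = 9.23e-05 and 9.21e-06). Neu1 reached 2.32 ± 0.31 in Oct4-KO late ICMs (edgeR adjusted p = 1.53e-09) and 1.19 ± 0.31 in Sox2-KO late ICMs (edgeR adjusted p = 0.00346). Ctsz, encoding cathepsin Z, and Scpep1, a serine carboxypeptidase, were called in the Oct4 line at both ICM stages, with 2.15 ± 0.48 and 1.06 ± 0.14 in late ICMs (edgeR adjusted p = 0.000167 and 9.01e-10). Tfe3 was lower in the same 4 comparisons, and Tfeb was higher in 1 of them, Oct4-KO late ICMs. Whether the lysosome genes followed either factor was not tested.

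Of 23 autophagy genes tested, 5 were called higher in Oct4-KO late ICMs and 2 lower in Oct4-KO early ICMs, and in the Sox2 line 1 was lower in early ICMs and 1 higher and 1 lower in late ICMs. The shares of all genes called lower were 6.11% and 8.85% in Oct4-KO and 1.69% and 3.61% in Sox2-KO early and late stages. Those called higher were 4.77% and 9.25% in Oct4-KO and 1.57% and 3.34% in Sox2-KO early and late stages. Ulk1, the kinase that starts autophagy, was called lower in Oct4-KO early (-1.49 ± 0.18, edgeR adjusted p = 1.52e-10), Sox2-KO early (-1.47 ± 0.18, edgeR adjusted p = 3.65e-09) and Sox2-KO late ICMs (-1.43 ± 0.18, edgeR adjusted p = 2.5e-09). In Oct4-KO late ICMs it stood at -0.79 ± 0.18 (edgeR adjusted p = 0.000206), under the fold minimum.

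Among the 9 tested Rag and Ragulator genes, the anchors of mTORC1 on the lysosome, 1 was called higher in Oct4-KO early and 2 in Oct4-KO late ICMs, and none in the Sox2 line. Rragd encodes RagD, a substrate of the folliculin complex. In the Oct4 line it rose by 1.36 ± 0.41 at the early and 2.27 ± 0.44 at the late stage (edgeR adjusted p = 0.00952 and 1.96e-05), and had 1.06 ± 0.44 in Sox2-KO late ICMs (edgeR adjusted p = 0.101). Of 9 mTORC1 and TSC genes, Deptor, an inhibitor of mTOR, was called lower in Oct4-KO early (-1.84 ± 0.25, edgeR adjusted p = 1.23e-08) and late ICMs (-1.27 ± 0.28, edgeR adjusted p = 0.000177), and no other gene of that list was called. Of 12 GATOR and amino acid sensor genes 1 was called, lower in Oct4-KO late ICMs, and of 6 AMPK subunits none. For comparison, the Oct4 line had 4.77% (early) and 9.25% (late) of all genes called higher, and 6.11% and 8.85% called lower. In the Sox2 line 1.57% and 3.34% were called higher, and 1.69% and 3.61% lower. Whether these short lists differ from such shares was not tested.

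Esrrb, the pluripotency factor that nuclear Tfe3 sustains in embryonic stem cells, had means of 177 ± 30.1 CPM in Ctrl and 36.4 ± 16.4 CPM in Oct4-KO early ICMs, and of 108 ± 17 and 8.36 ± 9.3 CPM in late ICMs (SD, n = 8 each). It was called lower in both (-2.20 ± 0.23, edgeR adjusted p = 8.73e-13, and -3.61 ± 0.30, edgeR adjusted p = 2.33e-18). In the Sox2 line it stood at -0.55 ± 0.22 in early and -0.53 ± 0.22 in late ICMs (edgeR adjusted p = 0.113 and 0.0954) and was not called. Tfe3 had log2 fold changes between -0.58 and -0.86 in these 4 comparisons. Esrrb is also 1 of the 10 epiblast markers. Of the 10, 7 were called lower in Oct4-KO early and 9 in Oct4-KO late ICMs. Their median log2 fold changes were -1.56 and -3.1. In Sox2-KO ICMs 4 were called lower at each stage. Of all genes, 6.11% and 8.85% were called lower in the Oct4 line and 1.69% and 3.61% in the Sox2 line. Whether Esrrb followed Tfe3 was not tested. The other named Tfe3 targets, Gpnmb with 31 UMIs and Ppargc1a with 1 UMI over all embryos, were too low to test.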

How the data were processed

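Single-embryo, 3′-end RNA-seq with UMIs was analysed from 48 Ctrl, 48 KO and 27 MWT embryos. As its methods state, the authors took UMIs from the reads with UMI-tools, trimmed reads with Cutadapt, aligned them to mm10 with TopHat2, assigned them to GENCODE vM23 genes with featureCounts and corrected the counts with TRUmiCount. The deposited counts are whole UMIs per gene, without normalization. The authors' second table holds deposited rlog values, a regularized log2 scale from DESeq2, used here only as an alternative.

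The 6 members and the gene lists were chosen with earlier results of these data known. Genes with a UMI in 0.5 or more of one stage's embryos were tested with edgeR 4.0.16 in R 4.3.3 (TMM, glmQLFit, glmQLFTest, by group). The 96 Ctrl and KO embryos (14053 genes) served the KO comparisons, and all embryos (13923 genes) the stage and MWT comparisons. A call needed a Benjamini-Hochberg adjusted p under 0.05 over all genes and a log2 fold change of 1 or more in size. The SE is the log2 fold change over the square root of F. Exact Poisson intervals are at 95%. CPM used all 29022 genes. The code was tested on simulated data. Nothing says that embryos of a group came from separate litters, so p-values measure the spread between these embryos.

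The genes named are the members, the genes most like Tfe3 (5, among genes that average 20 CPM or more in some group), the 3 named Tfe3 targets, and up to 4 genes per list called in the same direction in at least 2 of the 4 ICM comparisons. Among 416 pairs of embryos of the same group, the lowest chi-square per gene was 2.63, so none was taken as a duplicate. ERCC spike-ins and other assays of the study were not used here. Alternatives covered scaling (DESeq2 1.42.0 size factors, totals), filters, DESeq2, limma 3.58.1 on rlog values, thinned counts, other sets of embryos, sex, label set, a replicate block and leaving out embryos.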

Additional observations from a re-analysis of the deposited data

Results flagged for a closer look

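The KO effect on Tfeb in late ICMs differed between the lines, by 2.745 on the log2 scale in the interaction contrast. It was the 1 call among 16 such contrasts of members.

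Single embryos stood apart from the rest of their group in 8 of 95 sets of 1 member in 1 group, by the gap to the nearest other embryo over the group's range. For normally spread values chance would flag about 1 in 20, which low counts need not follow. Of the 8, the Mitf values in morulae follow from a single UMI in the whole group and carry no weight. For Tfe3, 1 Sox2 Ctrl late ICM, a female embryo, had 125 CPM, and the next 78 CPM. For Tfeb, the highest Oct4 MWT early ICM had 34.5 CPM against 14.3 CPM in the next, and the highest Sox2 MWT early ICM 34.9 CPM against 16.7 CPM. For Mitf, 1 Oct4 MWT early ICM had 22.6 CPM against 4.62 CPM in the next, and the single embryos with a UMI had 0.943 CPM among Oct4 Ctrl morulae and 0.865 CPM among Sox2-KO morulae. For Fnip1, the highest Oct4-KO late ICM had 78.3 CPM against 51.4 CPM, and for Fnip2 the highest Sox2 Ctrl morula 14.2 CPM against 7.19 CPM.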

How the results depend on the processing

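The 4 member calls of the KO comparisons were made under all 10 settings that could be run over all 6 comparisons, and the 1 call between lines under all 5. Tfe3 kept its sign in the 4 ICM comparisons under every alternative. Its values ran from -1.08 (Sox2-KO late ICMs, sex as a covariate) to -0.43 (Sox2-KO early ICMs, thinned counts). Without any 1 embryo they ran from -0.98 to -0.49. These are the values that chose the set, so their range is a description and no further support. Without the fold minimum, 16 steps between stages were called in place of 8, and 2 MWT differences in place of 1. Scaling by DESeq2 size factors or totals called Flcn in the Sox2 Ctrl morula to early ICM step (1.02 and 1.06), and totals called Fnip1 in the Oct4 Ctrl step (1.01). Leaving out each Oct4 MWT early ICM moved the Mitf morula to early ICM step between 1.99 and 3.91.

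KO and Ctrl embryos share replicate numbers, which were not taken as pairs: in no comparison did every same-numbered pair correlate over 0.1 in its deviations (-0.08 to 0.24), although 3 of 4 did in Sox2-KO late ICMs. With the replicate block, possible in 4 comparisons, Mitf in Sox2-KO early ICMs was -2.10 (edgeR adjusted p = 0.184). The same 8 embryos without the block gave -2.44 (edgeR adjusted p = 0.231), so the call was lost in both fits of fewer embryos. In Sox2-KO late ICMs Mitf was called with the block (-2.86, edgeR adjusted p = 0.00023). Tfeb in Oct4-KO morulae, at 0.37 in the main fit, was 0.97 with the block (edgeR adjusted p = 0.0421), just under the fold minimum. Those shared-number morulae without the block gave 0.96 (edgeR adjusted p = 0.153). Depth limits Mitf in morulae and early ICMs, Fnip2 and Tfec.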
